A study of Mus musculus with 8 samples.

Results

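The 10 genes described here encode the beta subunits of activin (Inhba and Inhbb), the activin-binding proteins follistatin (Fst) and follistatin-like 3 (Fstl3), the ligand TGF-beta 2 (Tgfb2), the activin receptors Acvr2a, Acvr2b and Acvr1b, and the TGF-beta receptors Tgfbr2 and Tgfbr1. They were chosen by gene symbol, and each of the 10 symbols had exactly 1 probe set among the 22142 tested probe sets, which stood for 19494 named genes. The choice was made with the difference between the groups already known, in particular that of Inhba, so the differences of these genes, with their standard errors and intervals, are given as a description, and no test of them is read. Expression was measured on Clariom S arrays in alphaTC1.9 cells, a clonal mouse line of glucagon-producing pancreatic alpha cells derived from a tumour of a mouse with a viral oncogene under glucagon gene control. Of the 8 arrays, 4 held RNA of IDE-KD cells, in which a small interfering RNA against insulin-degrading enzyme (Ide) had been used, and 4 held RNA of control cells. All cells grew in medium with 16 mM glucose. The labels do not state what the control cells received or whether replicates were separate cultures, so the errors measure spread between samples that may be partly technical. All values are log2 expression values, on which 1 unit is a 2-fold change, and all differences are IDE-KD minus control.

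Activins are dimers of inhibin beta subunits: the product of Inhba forms activin A and that of Inhbb activin B. Follistatin and follistatin-like 3 bind activins outside the cell and block their access to receptors. Activins bind type II receptors (Acvr2a, Acvr2b), which phosphorylate a type I receptor (Acvr1b, also called ALK4), while TGF-beta ligands use the type II receptor Tgfbr2 and the type I receptor Tgfbr1 (ALK5). Both type I receptors phosphorylate Smad2 and Smad3, which enter the nucleus with Smad4. In pancreatic islets, activins and follistatin are known as regulators of endocrine cell development and hormone secretion.

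Ide was lower in the knockdown cells, with 7.91, 8.14, 7.92 and 8.05 on the IDE-KD arrays, against 8.66, 8.62, 8.72 and 8.48 on the control arrays. The difference was -0.62 (SE 0.12), which is 1.53-fold on the scale of the array. All 8 measured genes of 12 on the alpha cell marker list had mean levels above 5.35, the upper quartile of the 5222 negative control rows of the array, with Gcg, the glucagon gene, at 12.06 ± 0.10 in IDE-KD and 12.06 ± 0.07 in control cells (SD, n = 4 each). Of these 8, 3 had a higher and 5 a lower mean in IDE-KD cells, with a median difference of -0.05, and their groups overlapped at all 8. The other 4 were not analysed here. IDE-KD arrays 1 and 3 stood apart from the other 6 in that their negative control rows averaged 4.20 and 4.20, against 4.25 to 4.38, and the SD over their tested probe sets was 2.16 and 2.13, against 2.20 to 2.25. In limma, 0 of the 22142 probe sets (0%) passed an adjusted p of 0.05, so Ide, the target of the knockdown, did not pass either. An unadjusted p under 0.05 was found at 1017 (4.59%, with 2.69% higher and 1.91% lower). The smallest adjusted p of any probe set was 1.00.

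Of the 10 genes, 6 had a higher mean and 4 a lower mean in IDE-KD than in control cells. The groups did not overlap at 2 of the 10, Inhba on the higher and Tgfbr1 on the lower side, where all tested probe sets gave 2.80% (1.39% higher and 1.41% lower). Because the genes were chosen with this contrast known, nothing is read from these counts. The count of higher means moved to 8 without control array 1 and to 5 without IDE-KD array 2 or control array 3. The median difference was 0.03, against 0.0074 over all tested probe sets.

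**Figure D1:**
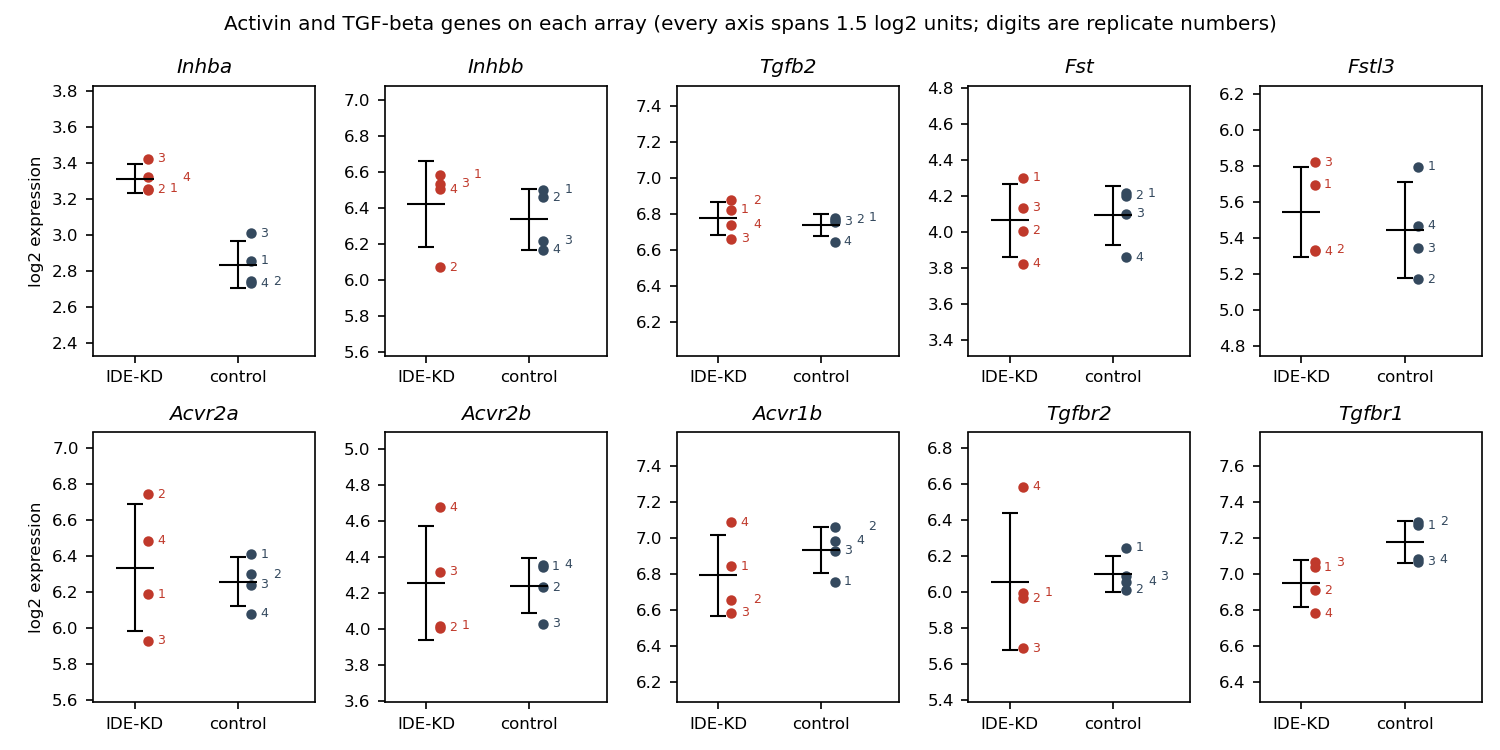
Log2 expression of the 10 activin and TGF-beta genes on each of the 4 IDE-KD arrays (red, left) and 4 control arrays (dark, right), with the replicate number beside each point and the mean and SD in black. Every vertical axis spans 1.5 log2 units. The groups are apart for Inhba (3.25 to 3.42 in IDE-KD, 2.73 to 3.01 in control) and just apart for Tgfbr1, and overlap for the other 8 genes.

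Inhba, the activin A subunit gene, showed the widest separation of the 10. It read 3.26, 3.25, 3.42 and 3.32 on the IDE-KD arrays, against 2.86, 2.74, 3.01 and 2.73 on the control arrays. Every IDE-KD array was above every control array, with a gap of 0.24 between the lowest IDE-KD and the highest control value. The means were 3.31 ± 0.08 in IDE-KD and 2.83 ± 0.13 in control cells (SD, n = 4 each), which is 0.48 higher in IDE-KD (SE 0.12, with a 95% confidence interval of 0.22 to 0.73) and 1.39-fold on the scale of the array. Leaving out each array in turn moved the difference between 0.44 and 0.54, and it was 0.45 without IDE-KD arrays 1 and 3. In a limma setting that lets the variance depend on level, the SE of the difference was larger, 0.15. The level itself was low: 26.2% of the negative control rows had a lower mean than Inhba, and the median negative control row stood at 4.16. A low signal is compressed towards the background and may be background alone. Whether these cells express Inhba, and how much mRNA these values stand for, cannot be told from them. Other dim genes described below also had separate groups, with Eng and Cd3e higher and Grem1 lower.

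Inhbb, the activin B subunit gene, was well above that range, with 91.0% of negative control rows below it. It read 6.59, 6.07, 6.54 and 6.51 on the IDE-KD arrays, against 6.503, 6.46, 6.22 and 6.17 on the control arrays. The groups overlapped, with IDE-KD array 2 the lowest of all 8. The other IDE-KD arrays were only just above every control array, the lowest of them at 6.507 against a highest control value of 6.503. The difference was 0.09 (SE 0.14), and with each array left out it ran from 0.03 without control array 4 to 0.20 without IDE-KD array 2. Without IDE-KD arrays 1 and 3 it was -0.05, so neither its size nor its sign was stable.

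Tgfb2, which encodes a TGF-beta ligand made as a latent precursor, was the steadiest of the 10. It read 6.82, 6.87, 6.66 and 6.74 on the IDE-KD arrays, against 6.78, 6.77, 6.76 and 6.64 on the control arrays. All 8 values lay within 0.23 of each other, and the groups overlapped throughout. The difference was 0.04 (SE 0.11, 95% confidence interval -0.20 to 0.28). Its SD within groups, 0.08, was smaller than that of all but 2.38% of tested probe sets.

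The start regions of these 3 ligand genes are shown so that the activin subunit gene with separate groups, Inhba, can be read beside the other subunit gene, Inhbb, and beside Tgfb2, whose window is closest to that of Inhba in CpG ratio. The windows come from RefSeq on GRCm38.p6 and run from 250 bases before to 50 after an annotated start, 5′ to 3′ on the strand of the gene. Inhba is chr13:16011601-16011900 on the + strand, Inhbb is chr1:119422199-119422498 on the - strand and Tgfb2 is chr1:186705940-186706239 on the - strand. Capitals mark matches on either strand to any of 5 motifs searched, the SMAD box CAGAC, the AP-1 site TGANTCA, the cAMP response element TGACGTCA, the TATA box TATAAA and the GC box GGGCGG.
Inhba: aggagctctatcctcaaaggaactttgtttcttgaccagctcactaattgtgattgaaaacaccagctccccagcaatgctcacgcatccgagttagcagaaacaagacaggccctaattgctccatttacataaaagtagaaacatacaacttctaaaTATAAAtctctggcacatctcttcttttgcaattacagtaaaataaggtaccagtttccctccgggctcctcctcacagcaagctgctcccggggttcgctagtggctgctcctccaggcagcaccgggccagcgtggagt
Inhbb: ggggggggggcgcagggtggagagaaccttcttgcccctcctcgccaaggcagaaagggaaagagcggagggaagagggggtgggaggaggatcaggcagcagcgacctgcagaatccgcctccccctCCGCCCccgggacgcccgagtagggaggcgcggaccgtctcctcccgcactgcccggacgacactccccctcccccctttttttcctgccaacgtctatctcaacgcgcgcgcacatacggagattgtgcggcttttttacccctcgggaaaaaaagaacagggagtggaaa
Tgfb2: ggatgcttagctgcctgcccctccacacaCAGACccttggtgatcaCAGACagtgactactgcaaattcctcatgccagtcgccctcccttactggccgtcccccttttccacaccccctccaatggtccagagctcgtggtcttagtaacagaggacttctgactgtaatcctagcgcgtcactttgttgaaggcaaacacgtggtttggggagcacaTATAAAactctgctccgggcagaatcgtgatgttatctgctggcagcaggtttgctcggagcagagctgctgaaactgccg
The Inhba window held a TATA box match, which 13.6% of all 32851 RefSeq windows of this length hold, and 0 SMAD box matches, which 49.6% hold. The Inhbb window held 1 GC box match (35.7% of all windows) and none of the other motifs. The Tgfb2 window held 2 SMAD box matches and a TATA box match. These matches describe letters in a window, not binding.

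RefSeq windows were found for 9 of the 10 genes, with Tgfbr1 having 2 starts and so 10 windows in all. Inhba had the lowest G+C content of these, 47.7%, with 7 CpG dinucleotides and an observed over expected CpG ratio of 0.43, near the median of all windows (52.7% G+C, 7 CpG, ratio 0.38). The ratio exceeded 0.6 in 7 of the 10 windows, against 35.8% of all windows. The highest were those of Acvr2a (1.14) and Acvr1b (1.09), at 80.3% and 79.7% G+C. The windows at 0.6 or below were those of Inhba, Tgfb2 (0.46) and the downstream start of Tgfbr1 (0.15). Matches to the SMAD box stood in 6 of the 10 windows, to the GC box in 6 and to the TATA box in 3 (Fstl3, Inhba and Tgfb2). The AP-1 site (7.81% of all windows) and the cAMP response element (1.79%) stood in 0.

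**Figure D2:**
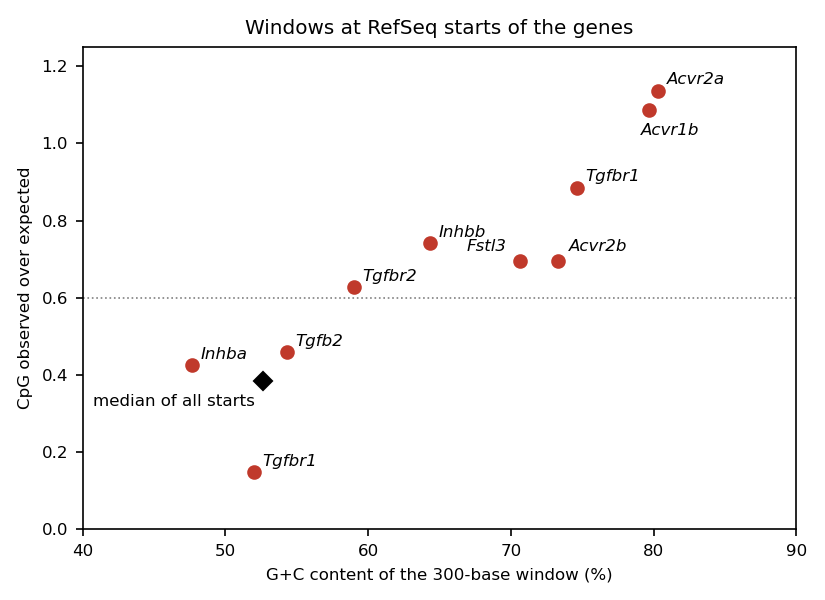
G+C content (horizontal axis, %) and observed over expected CpG ratio (vertical axis) of the 10 RefSeq windows of 300 bases at starts of 9 of the genes (red), with the median of all 32851 windows (black diamond) and the ratio of 0.6 (dotted). The receptor genes Acvr2a and Acvr1b lie at the upper right, and Inhba, Tgfb2 and 1 of the 2 starts of Tgfbr1 lie below the dotted line.

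The activin-binding proteins showed no separation of the groups. Fst read 4.30, 4.01, 4.14 and 3.82 on the IDE-KD arrays, against 4.22, 4.20, 4.10 and 3.86 on the control arrays. Array 4 was the lowest in both groups, and the ranges covered each other. The difference was -0.03 (SE 0.14), between -0.11 and 0.05 with each array left out, and the level was near the median negative control row (48.3% of such rows below it). Fstl3 read 5.69, 5.33, 5.82 and 5.32 on the IDE-KD arrays, against 5.80, 5.17, 5.34 and 5.47 on the control arrays. IDE-KD arrays 1 and 3 and control array 1 were high and the rest lower, so the values split within groups rather than between them. The difference was 0.10 (SE 0.16), between 0.01 and 0.22 with each array left out, and -0.11 without IDE-KD arrays 1 and 3.

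**Figure D3:**
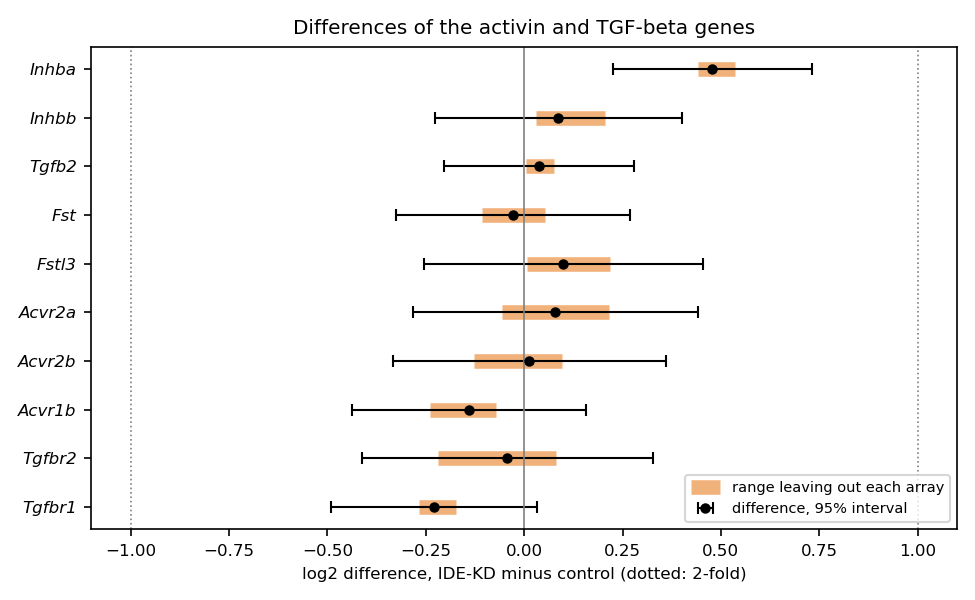
Log2 difference, IDE-KD minus control, of each of the 10 genes (points) with its 95% confidence interval from limma (bars) and the range of the difference when each array is left out in turn (orange). Dotted lines mark a 2-fold change. The point of Inhba, at 0.48, is the farthest from 0, and that of Tgfbr1, at -0.23, is the farthest on the lower side.

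Of the type II receptors, Acvr2a, which binds activins and related ligands, read 6.18, 6.74, 5.93 and 6.48 on the IDE-KD arrays, against 6.41, 6.30, 6.24 and 6.08 on the control arrays. The IDE-KD values enclosed the control values on both sides, with SDs of 0.35 and 0.14 (n = 4 each). The difference was 0.08 (SE 0.17), -0.06 without IDE-KD array 2, 0.21 without IDE-KD array 3 and 0.36 without IDE-KD arrays 1 and 3. Acvr2b, the other activin type II receptor gene, read 4.02, 4.01, 4.32 and 4.67 on the IDE-KD arrays, against 4.34, 4.23, 4.03 and 4.36 on the control arrays. Again the IDE-KD arrays spread more widely and enclosed the control arrays, with a difference of 0.01 (SE 0.16) that ran from -0.13 without IDE-KD array 4 to 0.10 without IDE-KD array 2. Acvr2b lay near the median negative control row (52.0% below it), while Acvr2a lay above 90.1% of them.

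Tgfbr2, the TGF-beta type II receptor gene, followed the same form. It read 5.996, 5.97, 5.69 and 6.59 on the IDE-KD arrays, against 6.25, 6.01, 6.09 and 6.06 on the control arrays. IDE-KD array 4 was the highest and IDE-KD array 3 the lowest of all 8. The difference was -0.04 (SE 0.17), and its sign rested on single arrays: it was -0.22 without IDE-KD array 4, 0.08 without IDE-KD array 3 and 0.17 without IDE-KD arrays 1 and 3.

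Of the type I receptors, Tgfbr1 was lower in IDE-KD cells on every array. It read 7.04, 6.91, 7.07 and 6.78 on the IDE-KD arrays, against 7.27, 7.29, 7.07 and 7.08 on the control arrays. The highest IDE-KD and the lowest control value were only 0.003 apart, and the groups overlapped after quantile normalization of the tested probe sets again and after cyclic loess. The means were 6.95 ± 0.13 in IDE-KD and 7.18 ± 0.12 in control cells (SD, n = 4 each), a difference of -0.23 (SE 0.12, 95% confidence interval -0.49 to 0.03). It stayed between -0.27 and -0.17 with each array left out, and was -0.33 without IDE-KD arrays 1 and 3. Acvr1b, the activin type I receptor gene, read 6.84, 6.66, 6.59 and 7.09 on the IDE-KD arrays, against 6.76, 7.06, 6.93 and 6.99 on the control arrays. IDE-KD array 4 was the highest of all 8, IDE-KD arrays 2 and 3 were the lowest, and the groups overlapped. The difference was -0.14 (SE 0.14), -0.24 without IDE-KD array 4 and -0.07 without IDE-KD array 3.

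The 10 genes differed in their spread within groups, a measure that does not depend on the group difference. The median SD within groups over all tested probe sets was 0.21, and 6 of the 10 genes were below it. Tgfb2 (0.08), Inhba (0.11) and Tgfbr1 (0.12) were the tightest. Tgfbr2 (0.28), Acvr2a (0.27) and Fstl3 (0.26) were the widest, with Tgfbr2 above 75.6% of tested probe sets. Among the IDE-KD arrays, array 4 had the highest value of Acvr1b, Acvr2b and Tgfbr2 and the lowest of Fst, Fstl3 and Tgfbr1. Array 3 had the highest value of Inhba, Fstl3 and Tgfbr1 and the lowest of Acvr1b, Acvr2a, Tgfbr2 and Tgfb2. Among the control arrays, array 1 had the highest value of 6 of the 10 genes and array 4 the lowest of 5. No array was the highest or the lowest of its group for all of the genes.

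Around these genes, 93 others of the pathway in 5 lists were measured, and 0 of them passed the adjusted threshold in limma in either direction. At an unadjusted p under 0.05 there were 4 (4.30%), against 4.59% of all tested probe sets, namely Lefty2, Eng and Bmpr1b on the higher and Grem1 on the lower side. The groups did not overlap at 4 (4.30%), against 2.80% of all tested probe sets, namely Tgfb1 and Eng on the higher and Grem1 and Skil on the lower side. Bmpr1b lay outside the naming rule and was named after its values were seen. Its level was very low, 2.29 ± 0.28 in IDE-KD and 1.95 ± 0.16 in control cells (SD, n = 4 each). The median difference of the 93 genes was 0.04, against 0.0074 over all tested probe sets.

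Among the other ligands of the TGF-beta family, 15 of 21 had a higher and 6 a lower mean in IDE-KD cells. Their median difference was 0.12, against 0.0074 over all tested probe sets, and 0 passed in either direction. Of these 21, 10 were below the median negative control row. Tgfb1, the founding ligand gene of the family, read 4.998, 5.11, 5.38 and 5.02 on the IDE-KD arrays, against 4.91, 4.98, 4.96 and 4.89 on the control arrays. The IDE-KD arrays were all above the control arrays by a gap of 0.02, with a difference of 0.19 (SE 0.12) that ran from 0.11 without IDE-KD array 3 to 0.24 without IDE-KD array 1. Inha encodes the inhibin alpha subunit, which pairs with an activin beta subunit to form inhibin, an antagonist of activin. It read 5.44, 5.70, 5.95 and 5.42 on the IDE-KD arrays, against 5.27, 5.42, 5.38 and 5.29 on the control arrays. The groups met at 5.42, and the difference was 0.29 (SE 0.14), and it ran from 0.18 without IDE-KD array 3 to 0.36 without IDE-KD array 4. Tgfb3 averaged 5.41 ± 0.13 in IDE-KD and 5.40 ± 0.09 in control cells (SD, n = 4 each), a difference of 0.02 (SE 0.12). Lefty2, whose product inhibits signaling by the ligand Nodal, differed by 0.47 (SE 0.20) (0.29 without IDE-KD array 1 and 0.59 without IDE-KD array 4), at levels of 4.06 ± 0.39 in IDE-KD and 3.59 ± 0.31 in control cells (SD, n = 4 each).

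Of 15 other receptors and co-receptors, 14 had a higher and 1 a lower mean, with a median difference of 0.10, against 0.0074 over all tested probe sets. Of these 15, 0 passed in either direction, and 6 were below the median negative control row. The shift was not particular to receptors: marker lists of other cell types, described below, had medians of 0.06 to 0.13. The alpha cell markers had a median of -0.05. Eng, which encodes the endothelial co-receptor endoglin, had the largest difference of the 5 lists. It read 3.05, 3.50, 3.52 and 3.21 on the IDE-KD arrays, against 2.95, 2.69, 2.48 and 2.88 on the control arrays. The groups were apart by 0.10 and the difference was 0.57 (SE 0.15), at a level that only 25.4% of negative control rows were below. Bmpr2, the type II receptor gene for bone morphogenetic proteins, averaged 9.38 ± 0.13 in IDE-KD and 9.28 ± 0.14 in control cells (SD, n = 4 each), a difference of 0.10 (SE 0.12). Tgfbr3, which encodes the co-receptor betaglycan, averaged 7.17 ± 0.07 in IDE-KD and 7.08 ± 0.21 in control cells (SD, n = 4 each), a difference of 0.08 (SE 0.13). Both differences were smaller than their SE, as was that of Acvr1 at 0.02 (SE 0.17). Acvr1c, the ALK7 gene, whose product serves as another type I receptor for activin B, was low on all arrays (2.86 ± 0.33 in IDE-KD and 2.77 ± 0.26 in control cells, SD, n = 4 each).

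**Figure D4:**
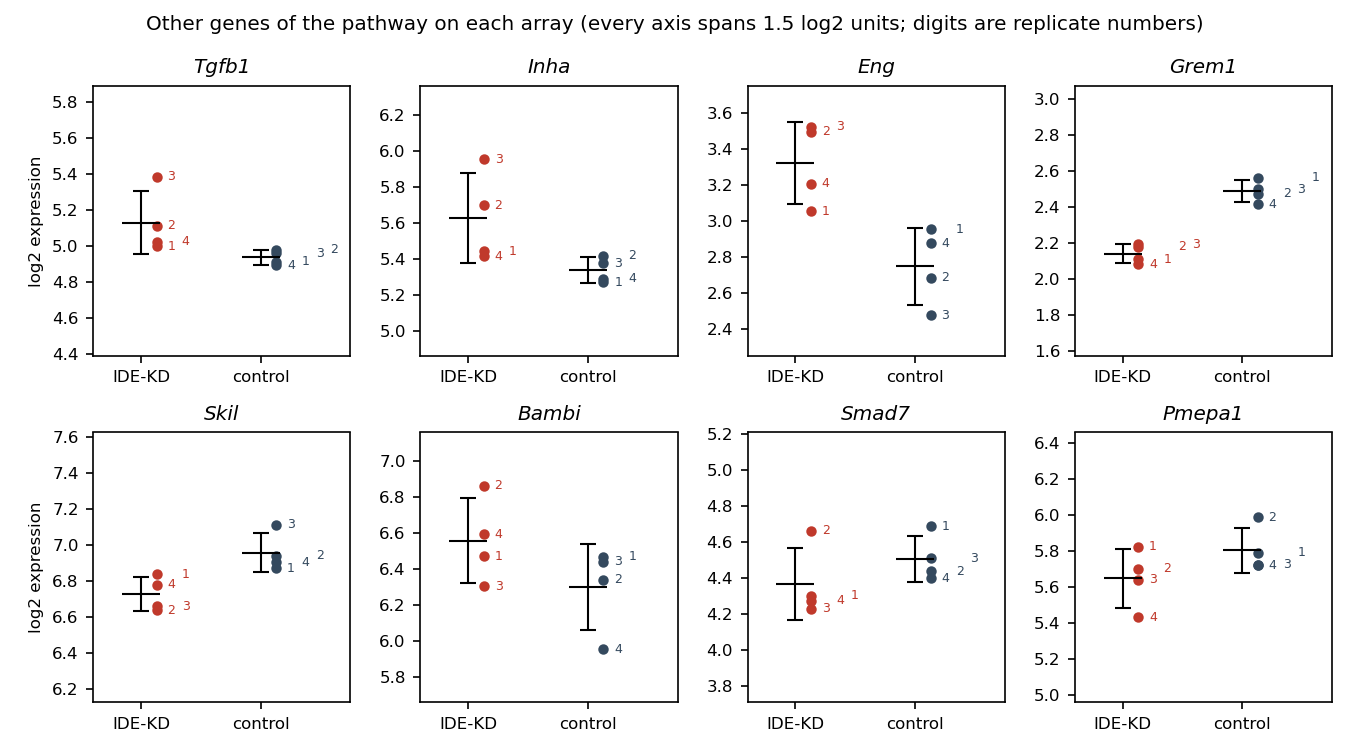
Log2 expression of 8 other genes of the pathway on each of the 4 IDE-KD arrays (red, left) and 4 control arrays (dark, right), with replicate numbers, means and SDs. Every vertical axis spans 1.5 log2 units. The groups are apart for Tgfb1, Eng, Grem1 and Skil and overlap for Inha, Bambi, Smad7 and Pmepa1.

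Extracellular antagonists, latency proteins and processing enzymes were split, with 12 higher and 9 lower of 21, a median difference of 0.01 and 0 past the threshold. Grem1, which encodes the bone morphogenetic protein antagonist gremlin, read 2.11, 2.18, 2.19 and 2.08 on the IDE-KD arrays, against 2.56, 2.47, 2.50 and 2.42 on the control arrays. The groups were apart by 0.22 with a difference of -0.35 (SE 0.11), but the level was very low, with 10.6% of negative control rows below it. Furin, which encodes a convertase that cleaves precursors of this family, differed by 0.20 (SE 0.15), by 0.09 without IDE-KD array 1, by 0.31 without IDE-KD array 4 and by -0.05 without IDE-KD arrays 1 and 3. Bambi, which encodes a decoy receptor without a kinase, differed by 0.26 (SE 0.16), by 0.14 without control array 4, by 0.16 without IDE-KD array 2 and by 0.43 without IDE-KD arrays 1 and 3.

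Smads and their intracellular regulators had 10 higher and 12 lower members of 22, a median difference of -0.03 and 0 past the threshold, and 18 of the 22 were above the upper quartile of the negative control rows. The shared signal carriers had differences of 0.05 (SE 0.13) for Smad2, -0.10 (SE 0.12) for Smad3 and 0.01 (SE 0.12) for Smad4, each smaller than its SE. Skil, whose product SnoN represses Smad-driven transcription, read 6.83, 6.64, 6.66 and 6.78 on the IDE-KD arrays, against 6.87, 6.94, 7.11 and 6.90 on the control arrays. The IDE-KD arrays were all lower, by a gap of 0.03, with a difference of -0.23 (SE 0.12). Tgif1, a repressor gene of the same pathway, differed by 0.24 (SE 0.14) with overlapping groups.

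Genes known as targets of TGF-beta and activin signaling in many cell types had 10 higher and 11 lower of 21 apart from Fst and Inhba, a median difference of -0.0063 and 0 past the threshold. Several of them also stand in the lists of regulators and antagonists. Smad7, the inhibitory Smad induced by the pathway, averaged 4.36 ± 0.20 in IDE-KD and 4.51 ± 0.13 in control cells, a difference of -0.14 (SE 0.13). It was -0.24 without IDE-KD array 2, the highest of the 4 IDE-KD arrays, -0.08 without control array 1 and -0.04 without IDE-KD arrays 1 and 3. Pmepa1, another feedback inhibitor, averaged 5.65 ± 0.16 in IDE-KD and 5.80 ± 0.13 in control cells, a difference of -0.16 (SE 0.13; SD, n = 4 each). It was -0.08 without IDE-KD array 4, -0.10 without control array 2 and -0.24 without IDE-KD arrays 1 and 3. Cdkn1a, which encodes the cell cycle inhibitor p21, differed by 0.21 (SE 0.13; 0.33 without IDE-KD arrays 1 and 3), with levels of 9.81 ± 0.15 in IDE-KD and 9.60 ± 0.15 in control cells (SD, n = 4 each).

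**Figure D5:**
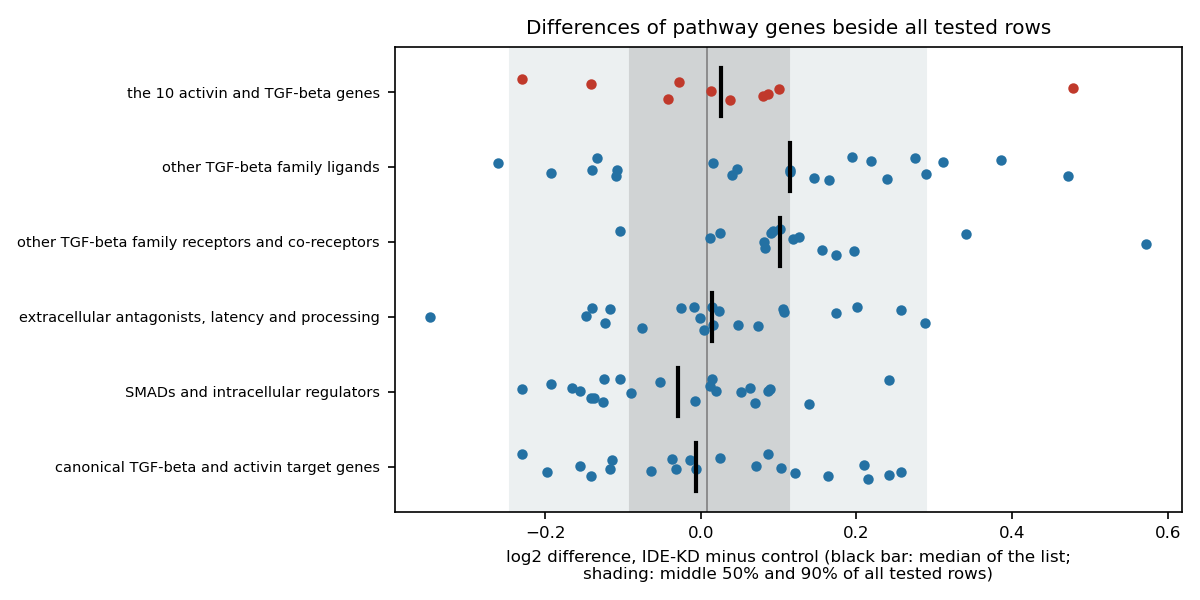
Log2 difference, IDE-KD minus control, of the 10 activin and TGF-beta genes (red) and of the measured genes of 5 pathway lists without them (blue), with each list's median (black bar). Shading marks the middle 50% and 90% of all 22142 tested probe sets. The medians run from -0.03 for Smads and regulators to 0.12 for other ligands.

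The named genes whose 8 values were most like those of Inhba were Gprc5d, an orphan receptor gene, Rgs4, which encodes a regulator of G protein signaling, and Taf4b, a subunit gene of a general transcription factor. Their Pearson r with Inhba over the 8 arrays was 0.98, 0.96 and 0.95, and 23 of the other tested probe sets had an r over 0.9. The points share the 2 groups, so a gene that differs in the same direction is alike for that alone. Rgs4 averaged 9.87 ± 0.04 in IDE-KD and 9.53 ± 0.12 in control cells, a difference of 0.33 (SE 0.11). Taf4b differed by 0.31 (SE 0.11) and Gprc5d by 0.45 (SE 0.12), the last at levels below the median negative control row.

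Markers of other cell types were mostly at low levels, and most had a higher mean in IDE-KD cells. Those with a lower mean were Nkx6-1, Slc2a2, Pdgfrb, Kdr, Sox9 and Amy2a5. Their levels ran from low (Slc2a2, 2.70 in IDE-KD and 2.77 in control cells) to high (Kdr). Of 11 markers of other islet cells, 9 were higher in IDE-KD, with a median difference of 0.13, against 0.0074 over all tested probe sets. The mean of the list ran from 4.22 to 4.53 on IDE-KD arrays and from 4.13 to 4.41 on control arrays. Of 9 fibroblast and stellate cell markers, 8 were higher (median 0.11; list means 3.66 to 3.90 on IDE-KD and 3.53 to 3.76 on control arrays), and of 11 immune, endothelial and exocrine markers, 8 were higher (median 0.06; 4.22 to 4.44 on IDE-KD and 4.22 to 4.33 on control arrays). At an unadjusted p under 0.05 there were 1 of the 11 islet cell markers (Nkx6-1, lower), 1 of the 9 fibroblast markers (Lum, higher) and 3 of the 11 others (Cd3e higher, Kdr and Sox9 lower), against 4.59% of all tested probe sets. The groups did not overlap at Cd3e, a T cell receptor complex gene (0.44, SE 0.12), and Kdr, an endothelial receptor gene (-0.40, SE 0.11), against 2.80% of all tested probe sets. Kdr averaged 8.47 ± 0.03 in IDE-KD and 8.87 ± 0.13 in control cells, and Cd3e 3.36 ± 0.11 in IDE-KD and 2.92 ± 0.14 in control cells (SD, n = 4 each). The other endothelial markers measured did not share the direction of Kdr, with differences of 0.22 (SE 0.15) for Pecam1 and 0.07 (SE 0.18) for Cdh5. The other immune markers measured differed less than Cd3e, by 0.06 (SE 0.22) for Ptprc and 0.03 (SE 0.14) for Adgre1. The markers named in this paragraph were named after their values were seen. In limma 0 genes of these lists passed the adjusted threshold, and below the median negative control row lay 5, 5 and 7 of them in that order. Their part in the differences of Inhba, Eng and the ligand and receptor lists was not tested. In RNA of bulk cultures, a change in the share of cells that make a transcript and a change in transcript per cell cannot be told apart.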

How the data were processed

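The authors deposited log2 expression values for each probe set and array. Per the submitters' processing notes, their tools include RMA, oligo and limma, but neither the role nor the version of any. RMA usually corrects background, equalizes distributions across arrays and summarises probes, which would remove a global change in RNA amount. The labels name no genome build. Values were used as deposited. Of 29129 rows, 22142 probe sets were tested, and 6923 array control rows and 64 unplaced rows were left out. By the platform annotation, 19527 tested rows had a single gene symbol and 2615 had none. IDE-KD was compared with control with lmFit and eBayes of limma 3.58.1 under R 4.3.3 and no covariate, and p-values were adjusted by Benjamini-Hochberg over all tested rows. The limma step was run on simulated data with independent noise and no effects of single arrays. That was a check of the code, and nothing about the differences given here is read from it. Precision is limited by the small number of arrays, with a median half-width of 0.32 for a 95% interval. Gene levels are not compared with each other; each was set against the negative control rows.

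The genes, the pathway and marker lists and the tests were chosen with earlier results of these data known. Named genes were the 10 described, Ide, Gcg, 15 pathway genes whatever their values (a further one on that list is not reported here), the further gene with the smallest p in each of 5 pathway lists, and the 3 named genes most like Inhba. Alternatives were other limma settings, 3 normalizations, a filter on dim rows, the replicate number as a block and leaving out arrays. Start windows were matched by symbol to RefSeq sequences on GRCm38.p6.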

Additional observations from a re-analysis of the deposited data

Results flagged for a closer look

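In 70 groups of 4 arrays, 35 genes in either group, the highest or lowest array was set against the others by Dixon's ratio and its 95% critical value for 4 samples. Chance alone passes it in about 5% of groups, and 3 passed. Inhbb on IDE-KD array 2 was low, at 6.07 against 6.51 to 6.59 on the other IDE-KD arrays, with a ratio of 0.842. Tgfb2 on control array 4 was low, at 6.64 against 6.76 to 6.78 on the other control arrays, with a ratio of 0.848, although the gap is small because those 3 arrays lay so close together. Smad7 on IDE-KD array 2 was high, at 4.66 against 4.23 to 4.30 on the other IDE-KD arrays, with a ratio of 0.834. Both IDE-KD cases fell on array 2, and the cause was not tested.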

How the results depend on the processing

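The count of probe sets past the adjusted threshold was 0 in limma and under all 16 alternatives, while the count at an unadjusted p under 0.05 was 1017 and ran to 1749 without IDE-KD arrays 1 and 3, an alternative chosen after seeing the data, and to 522 of 12616 after leaving out dim rows. The number of the 10 genes higher in IDE-KD, 6, ran from 5 to 8 with each array left out and was 4 of 7 without dim rows. The number whose groups did not overlap, 2, was 1 after quantile normalization again and 1 after cyclic loess (Inhba in both). It was 1 of 7 without dim rows (Tgfbr1), because Inhba, Fst and Acvr2b are dim and were left out there. With each array left out it ran from 2 to 3. Leaving out an array cannot make separate groups overlap, so there it could not fall below 2. Inhba stayed between 0.43 and 0.54 in its 15 alternatives and Tgfbr1 between -0.33 and -0.17 in its 16. Inhba, Tgfbr1, Acvr1b and Tgfb2 kept their sign in every alternative run, and the other 6 genes changed sign in 14 of the 157 values of the 10 genes, none of them called. Some of these values could not move: the replicate block, the filter on dim rows and the limma setting with variance dependent on level alter the SE only. They are counted among the alternatives and the 157 values all the same. Acvr2a (0.36) and Furin (-0.05) moved by more than 1 SD without IDE-KD arrays 1 and 3. Of the 25 other named genes, 7 changed sign at least once. Signal limits what can be read for Inhba, Fst and Acvr2b: the means of Inhba and Fst lay below the median negative control row of 4.16, and that of Acvr2b lay just above it at 4.25.

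The groups share replicate numbers. Deviations of same-numbered arrays correlated at 0.09 to 0.13, all of them positive, against -0.23 to 0.21 for other pairs. Of the 4 IDE-KD arrays, 1 was most like the control array of its own number. These values do not decide whether the numbers mark pairs. The main fit did not take them as pairs, and a fit with the replicate number as a block was an alternative. With the replicate block, 0 probe sets passed the adjusted threshold, and 6 of the 10 genes were higher in IDE-KD. An unadjusted p under 0.05 was found at 1253 probe sets, against 1017 without the block.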
